A study of Mus musculus with 2 samples.

Results

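A set of 9 genes of potassium channels that act during and after a spike was followed in ribosome-bound RNA of the mouse dentate gyrus, out of 32531 gene lines in the tables. They were chosen by symbol and channel family, and all 9 were found. They are Kcnma1 and Kcnmb4 of the BK channel, Kcnn1, Kcnn2 and Kcnn3 of the SK channels, Kcnt1 and Kcnt2 of the sodium-activated channels Slack and Slick, and Kcnq3 and Kcnq5 of the Kv7 channels. The RNA came from the line OI82 (Lypd1-TRAP), whose adult mice carry the transgene Lypd1-EGFP/Rpl10a and had no treatment. In a TRAP line a tagged ribosomal protein is made under the control of a chosen gene, here Lypd1, and the tagged ribosomes are pulled down with antibodies to EGFP. The study has 1 group of 2 libraries, both pull-downs, with 31309643 and 32711412 counts on gene lines in replicate 1 and replicate 2. Neither unpurified tissue nor a second condition was analysed here, so the values are levels and none is an enrichment. Nothing in the labels tells whether each library is a separate animal or a pool, so the spread between them may be technical.

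All of these channels pass potassium out of the cell, but they answer to different signals. BK channels open on depolarisation together with a rise in calcium at the membrane, SK channels open on calcium alone through bound calmodulin, and Slack and Slick open on internal sodium. Kv7 channels carry the M current, a slow potassium current that needs the membrane lipid PIP2 and is shut off by muscarinic receptors. In granule cells, the principal neurons of the dentate gyrus, such currents shape the afterhyperpolarisation and the sparse firing these cells are known for.

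The 8 pore-forming members share the potassium selectivity signature, a short loop that lines the narrowest part of the pore, while Kcnmb4 encodes an auxiliary subunit and has no such stretch. It is shown here because it is the feature that joins genes from 4 families and sets Kcnmb4 apart. Each sequence of 30 bases below is the coding strand of a GENCODE M21 transcript on GRCm38, read 5′ to 3′ within 1 coding exon. Capitals mark the codons of Gly-Tyr-Gly in BK, SK and Kv7 and of Gly-Phe-Gly in Slack and Slick. At least 1 member of each family is shown.
Kcnma1 (chr14:23528401-23528430, minus strand): tctacagtgGGTTATGGGgacgtttatgca
Kcnn1 (chr8:70850645-70850674, minus strand): ttgtccattGGCTATGGAgacatggtgccg
Kcnt1 (chr2:25894364-25894393, plus strand): tcaactgtgGGCTTCGGTgatgtgacgccc
Kcnt2 (chr1:140425275-140425304, plus strand): tctactgtgGGCTTTGGGgatgtcactcct
Kcnq3 (chr15:66023719-66023748, minus strand): gccaccattGGTTATGGAgacaagacacct

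Of the stretches shown, the closest pair was Kcnt1 and Kcnt2, of 1 family, with 24 of 30 bases identical. Across families the closest pair was Kcnma1 and Kcnt2, with 21 identical bases. The likeness is a description of the reference sequence and says nothing about level.

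Every member was detected, which means at least 1 count per 1000000 counts on gene lines (CPM) in both libraries. That is 9 of 9, where 38.1% of all gene lines passed. All 9 passed in either library alone, and 7 of 9 reached 5 CPM in both, Kcnn1 and Kcnt1 being the members below it. The 89 other genes whose symbol begins with Kcn, which include auxiliary subunits and 4 noncoding transcripts, were detected in 52 cases (58.4%). The median level over the members was 17.3 CPM. Divided by kilobases of annotated exon, it was 2.42 CPM per kilobase for the members and 0.783 for those other genes.

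**Figure D1:**
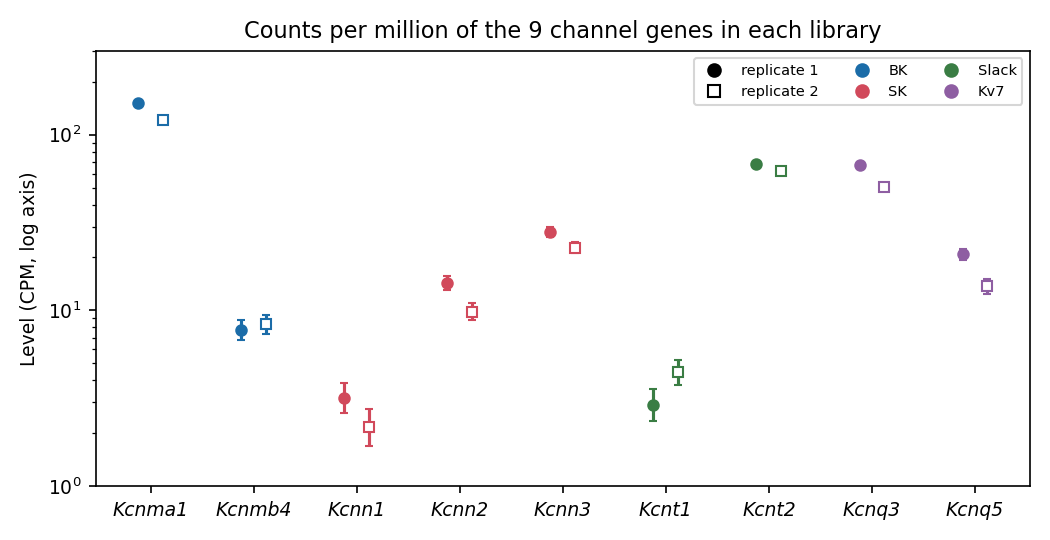
Level of each of the 9 genes in CPM (log axis) in replicate 1 (filled circles) and replicate 2 (open squares), coloured by channel family. Bars are exact 95% counting intervals of each library, often smaller than the symbol. The highest member, Kcnma1, was at 151 and 121 CPM, and Kcnn1 and Kcnt1 were the only members below 5 CPM.

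BK channel genes were unequal. Kcnma1, which encodes the pore-forming subunit and lies on chromosome 14 (23289431 to 24014491, minus strand, GRCm38), had 4713 and 3954 counts in replicates 1 and 2, or 151 CPM (95% counting interval 146 to 155) and 121 CPM (117 to 125). Replicate 1 was the higher library, and the counting intervals did not overlap. Kcnmb4, on chromosome 10 (116417861 to 116473878, minus strand), encodes the beta4 subunit, the main beta subunit of brain BK channels, which slows their gating. It had 242 and 273 counts, or 7.73 CPM (6.79 to 8.77) and 8.35 CPM (7.38 to 9.40). Here the libraries overlapped within counting error.

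Levels of different genes can be compared only per length, so CPM was divided by the kilobases of annotated exon. On that scale Kcnma1 stood at 7.99 ± 1.24 CPM per kilobase (SD, n = 2) and Kcnmb4 at 2.42 ± 0.131, a ratio of 3.81 in replicate 1 and 2.84 in replicate 2. Kcnmb4 shares 693 exonic bases, 20.8% of its exon length, with the antisense gene Kcnmb4os2, which had 74 and 107 counts of its own, and 355 bases with Kcnmb4os1, with 0 and 1. No strand setting is given in the sources used here, so reads in the shared bases cannot be assigned with certainty, and how much this touched the Kcnmb4 level was not tested. Kcnma1 shares 5.98% of its exon length with an antisense transcript that had 58 and 25 counts.

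The other BK subunits were near the floor. Kcnmb1, the beta subunit of smooth muscle, had 1 and 11 counts, Kcnmb2 had 11 and 1, and Kcnmb3 had 2 and 4. A count of 0 would allow up to 3 counts, or 0.0958 CPM in replicate 1 and 0.0917 CPM in replicate 2. Kcnu1, which encodes the related channel Slo3 known from sperm, had 127 and 148 counts, 4.29 ± 0.331 CPM. Among the gamma subunits, Lrrc55 was detected at 17.99 ± 2.23 CPM, Lrrc26 had 20 and 4 counts, and Lrrc38 and Lrrc52 had 0 in both libraries. Lingo1, a membrane protein described as a BK partner, was at 68.2 ± 45.2 CPM per kilobase, with 5340 and 15445 counts, and so stood 1.56 higher on the log2 scale in replicate 2.

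SK channel genes followed in the order Kcnn3, Kcnn2, Kcnn1 by annotated exon length. Kcnn3 (SK3), on chromosome 3 (89520164 to 89675132, plus strand), had 879 and 742 counts, or 28.1 CPM (26.2 to 30.0) and 22.7 CPM (21.1 to 24.4). Kcnn2 (SK2), on chromosome 18 (45268860 to 45686024, plus strand), had 449 and 322 counts, or 14.3 CPM (13.0 to 15.7) and 9.84 CPM (8.80 to 11.0). Kcnn1 (SK1), on chromosome 8 (70842049 to 70863258, minus strand), had 100 and 71 counts, or 3.19 CPM (2.60 to 3.88) and 2.17 CPM (1.70 to 2.74). All 3 were higher in replicate 1, and the counting intervals of the 2 libraries overlapped for Kcnn1 alone.

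Per kilobase of exon, Kcnn3 made up 50.7% of the SK total in replicate 1 and 54.8% in replicate 2, Kcnn2 36.2% and 33.3%, and Kcnn1 13.1% and 11.9%. The place of Kcnn1 as the lowest held under each of the 3 gene lengths tried. That of the other members did not, since over the longest annotated transcript Kcnn2 took 46.7 ± 2.33% and Kcnn3 43.9 ± 2.87%. Kcnn2 is annotated with 10 transcripts and Kcnn3 with 2, and gene counts do not tell them apart. Kcnn4, which encodes the intermediate conductance channel of blood and epithelial cells, had 0 counts in both libraries.

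Slick was the higher of the sodium-activated pair. Kcnt2, which encodes Slick and lies on chromosome 1 (140246158 to 140612067, plus strand), had 2132 and 2043 counts, or 68.1 CPM (65.2 to 71.0) and 62.5 CPM (59.8 to 65.2). Kcnt1, which encodes Slack and lies on chromosome 2 (25863734 to 25918273, plus strand), had 91 and 145 counts, or 2.91 CPM (2.34 to 3.57) and 4.43 CPM (3.74 to 5.22). Kcnt2 was slightly higher in replicate 1, with intervals that met without overlapping, whereas Kcnt1 was higher in replicate 2 with no overlap of the intervals.

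Per kilobase, Kcnt2 stood at 9.47 ± 0.578 CPM and Kcnt1 at 0.386 ± 0.114, so that Kcnt2 made up 97.0% of the pair in replicate 1 and 95.1% in replicate 2. Under the other gene lengths its mean share was 95.3% and 95.1%. As a share of the counts of the pair, Kcnt1 took 4.09% in replicate 1 (95% interval 3.31 to 5.002) and 6.63% in replicate 2 (5.62 to 7.75), so the composition of the pair differed between the libraries by more than counting error.

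Kv7 members were led by Kcnq3. Kcnq3 (Kv7.3), on chromosome 15 (65986387 to 66286642, minus strand), had 2097 and 1653 counts, or 67.0 CPM (64.1 to 69.9) and 50.5 CPM (48.1 to 53.0). Kcnq5 (Kv7.5), on chromosome 1 (21398403 to 21961942, minus strand), had 652 and 448 counts, or 20.8 CPM (19.3 to 22.5) and 13.7 CPM (12.5 to 15.02). Both were higher in replicate 1, with no overlap of the counting intervals.

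Kcnq3 made up 62.7% of the 2 genes per kilobase of exon in replicate 1 and 65.9% in replicate 2. As shares of their counts Kcnq3 took 76.3% (95% interval 74.6 to 77.9) and 78.7% (76.9 to 80.4), and these intervals overlapped. The composition of the pair thus differed little between libraries, although both genes were lower in replicate 2. Kcnq5 shares 3.08% of its exon length with a noncoding gene on the opposite strand, and how much this touched its level was not tested. Kcnq1, known from heart and inner ear, had 52 counts in replicate 1 and 0 in replicate 2. It shares 121 exonic bases, 2.96% of its exon length, with the antisense RNA Kcnq1ot1, which had 2126 and 2549 counts. Whether this overlap touched the Kcnq1 counts was not tested.

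Over all 9 genes, Kcnt2 was the highest per kilobase of exon, followed by Kcnma1 and Kcnq3 (3.99 ± 0.791), and the libraries of each did not overlap with those of the next. Kcnn3 (2.43 ± 0.365), Kcnmb4, Kcnq5 (2.24 ± 0.656) and Kcnn2 (1.62 ± 0.426) came next, and each overlapped with its neighbour in the order. Both libraries of Kcnn2 lay below those of Kcnn3 and of Kcnmb4. Kcnn1 (0.585 ± 0.158) and Kcnt1 were the lowest, and their libraries did not overlap. Between the highest and the lowest member lay 9.47 against 0.386 CPM per kilobase.

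The top of this order depends on the length used. Over the longest transcript, Kcnt2 at 11.3 ± 0.689 and Kcnma1 at 11.2 ± 1.73 CPM per kilobase overlapped. Divided by the longest coding length, Kcnma1 led at 36.4 ± 5.63, ahead of Kcnq3 at 22.4 ± 4.44 and Kcnt2 at 19.2 ± 1.17. The libraries of Kcnq3 and Kcnt2 overlapped on that scale. The same gene counts were divided by each length, so the coding scale is not a level of reads on coding sequence. Kcnma1 has 38 annotated transcripts and 17.0 kilobases of exon for 3.73 kilobases of longest coding sequence. By their means Kcnn1 stayed in place 8 and Kcnt1 in place 9 under all 3 lengths, but over the longest transcript their libraries overlapped, at 0.789 and 0.536 CPM per kilobase for Kcnn1 and 0.438 and 0.668 for Kcnt1.

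**Figure D2:**
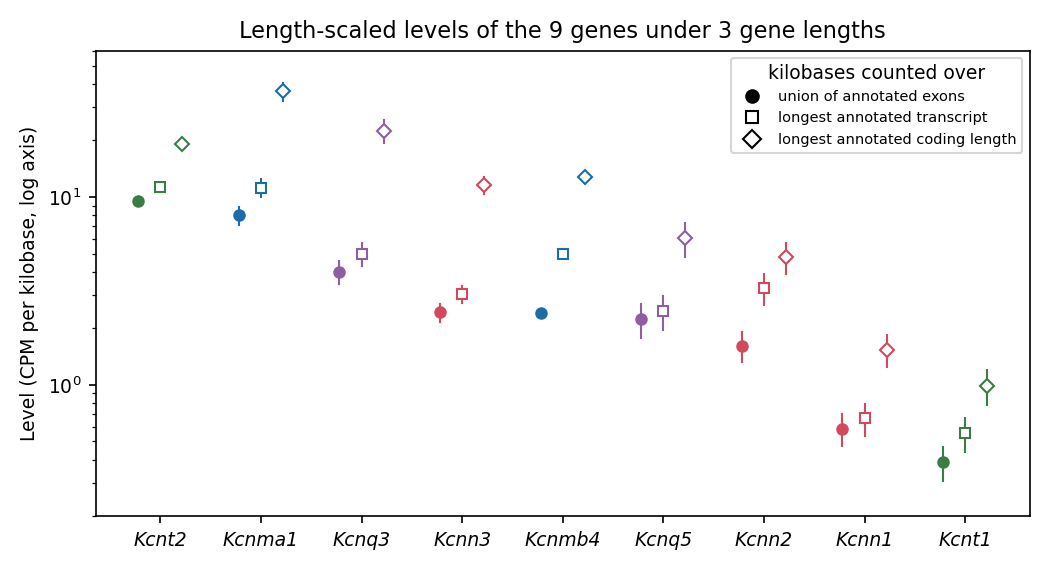
Level of each gene in CPM per kilobase (log axis) with 3 definitions of gene length, shown as filled circles (all annotated exons), open squares (longest transcript) and open diamonds (longest coding sequence). Symbols are means of the 2 libraries and vertical lines run from one library to the other. Kcnn1 and Kcnt1 had the lowest means under each length, while Kcnma1 passed Kcnt2 when coding length was used.

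Set among the 98 genes whose symbol begins with Kcn, the 9 members ranked from 22 to 66 per kilobase of exon. Kcnt2 held rank 22, Kcnma1 25 and Kcnq3 31. Kcnn3, Kcnmb4 and Kcnq5 held ranks 38 to 40, Kcnn2 42, Kcnn1 58 and Kcnt1 66. For each member the nearest other Kcn gene was the one whose pair of levels, as log2 of CPM per kilobase plus 0.1, lay closest over the 2 libraries. The closest match was Kcnc2, a Kv3 subunit gene, to Kcnn2, at 1.82 and 1.27 CPM per kilobase against 1.92 and 1.32 (distance 0.0894). Kcnt2 lay nearest to Kcnv1, a silent Kv subunit gene (distance 0.126), Kcnmb4 to the inward rectifier gene Kcnj10 (0.162) and Kcnma1 to the inward rectifier gene Kcnj9 (0.201). Kcnn1 lay nearest to Kcnk10 (0.215), Kcnq3 to Kcng1 (0.311), Kcnn3 to Kcna6 (0.326), Kcnt1 to Kcnk3 (0.386) and Kcnq5 to Kcnh3 (0.543). With 2 libraries this likeness is one of level.

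**Figure D3:**
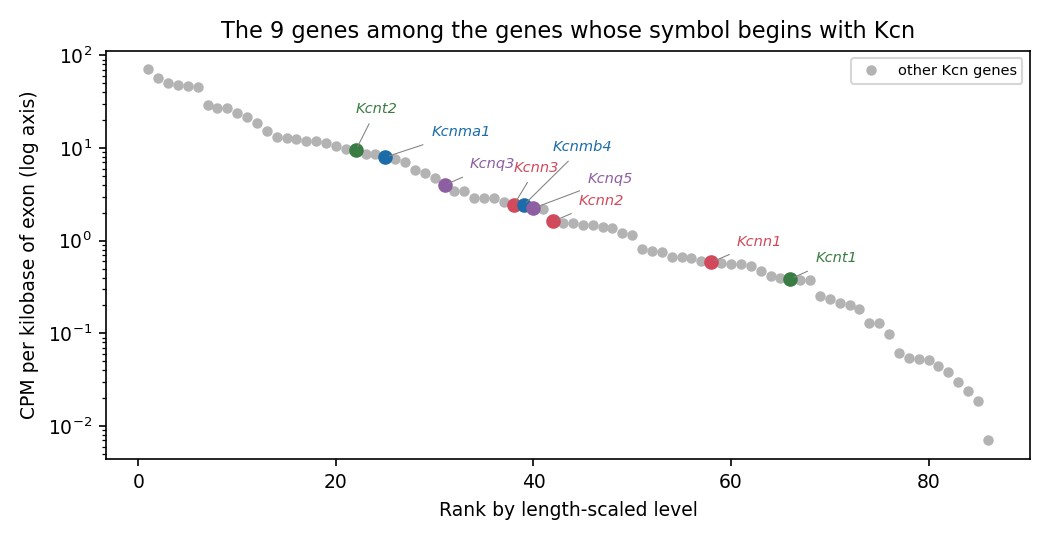
Mean level over the 2 libraries in CPM per kilobase of exon (log axis) against rank, for the 86 genes whose symbol begins with Kcn and that had a count. Coloured and named points are the 9 members and grey points the others. The members run from rank 22 (Kcnt2) to rank 66 (Kcnt1).

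Of the 9 members, 7 were lower in replicate 2 after scaling of the totals by TMM, a method that centres the bulk of genes. Their median log2 ratio of replicate 2 to replicate 1 was -0.22, against -0.01 over the 13089 genes with a mean of at least 1 CPM, of which 50.8% were below 0, and -0.20 over the other Kcn genes, of which 67.8% were below 0. With 1 library on each side these ratios compare libraries, and no test was possible. The ratio was -0.22 for Kcnma1 (95% counting interval -0.29 to -0.16), -0.31 for Kcnq3 (-0.41 to -0.22) and -0.51 for Kcnq5 (-0.69 to -0.34). The 3 SK genes were at -0.21 for Kcnn3 (-0.36 to -0.07), -0.45 for Kcnn2 (-0.66 to -0.24) and -0.45 for Kcnn1 (-0.92 to -0.01). Kcnt2 (-0.03, -0.12 to 0.06) and Kcnmb4 (0.20, -0.05 to 0.46) had intervals that included 0.

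Past 1.5-fold, 1 of 9 members was higher in replicate 2, where 12.6% of all genes compared were, and 0 of 9 were lower, where 14.3% were. The member was Kcnt1, with a log2 ratio of 0.69 (0.31 to 1.10), an interval that reaches below 1.5-fold. With library totals alone, which shift the median of all genes to -0.10, Kcnq5 passed 1.5-fold lower, at -0.60. Of the 59 other Kcn genes compared, 5 were past 1.5-fold higher and 14 lower.

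**Figure D4:**
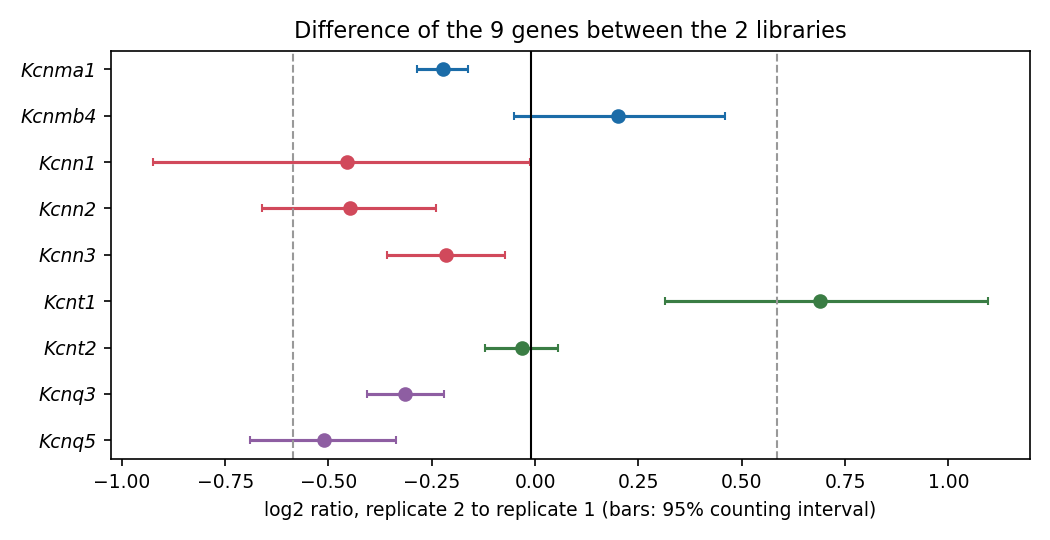
Log2 ratio of replicate 2 to replicate 1 for each of the 9 genes, with exact 95% counting intervals as bars. Dashed lines mark 1.5-fold in either direction and the solid line the median of all genes compared (-0.01). Kcnt1 alone lies past a dashed line, while the SK and Kv7 genes all lie to the left of the median.

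Markers of other cells were counted in the same libraries, because bulk RNA cannot tell fewer cells of a type from less RNA per cell. All 10 granule cell markers were detected, with summed levels of 3499 and 3641 CPM, and Rfx3 was the highest at 1284 ± 43.0 CPM. Of the 7 mossy cell markers 3 were detected, with sums of 59.2 and 35.8 CPM, Ajap1 highest and Calcr at 0 counts, and none of the 3 compared was above 0 as a log2 ratio (median -1.18). Sums were 163 and 194 CPM for CA1 and CA3 markers (7 of 8 detected) and 125 and 162 CPM for GABAergic markers (5 of 10). They were 468 and 505 CPM for astrocyte markers (7 of 8) and 190 and 144 CPM for oligodendrocyte markers (6 of 7). Most of the astrocyte sum was Slc1a2, at 389 and 413 CPM, and most of the oligodendrocyte sum was Mbp, at 126 and 99.3 CPM. The median log2 ratio was -0.20 for CA1 and CA3 markers, with 1 of 7 compared above 0, namely Ptgs2 at 30.3 and 94.6 CPM, and -0.29 for GABAergic markers, with 3 of 7 above 0. It was 0.32 for astrocyte markers (5 of 7 above 0), -0.38 for oligodendrocyte markers (1 of 6) and 0.18 for granule cell markers (7 of 10). Oligodendrocyte precursor markers (6 of 6 detected) summed to 15.2 and 24.8 CPM (median log2 ratio 1.05, 4 of 6 above 0). Endothelial markers (5 of 6 detected) summed to 23.5 and 20.1 CPM (-0.23, 3 of 6) and mural markers (3 of 7 detected) to 19.5 and 21.8 CPM (-0.98, 2 of 5). Microglial markers summed to 2.59 and 2.26 CPM, with 0 of 7 detected and C1qa and C1qb at 0. The part of these cells in the levels and ratios of the channel genes was not tested.

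Of 38 genes listed for SK, Kv7 and Slack partners, the muscarinic pathway, PIP2 turnover and calcium sources, 37 were detected. Of all gene lines 38.1% passed, and of the 5 BK gamma subunit and partner genes given above 2 did. All 10 genes of the SK list were detected, among them the calmodulin genes Calm2 (3365 ± 468 CPM per kilobase) and Calm3 (568 ± 26.2), whose product is the calcium sensor of SK channels, and the SK2-associated scaffold gene Mpp2 (38.8 ± 8.52). Past 1.5-fold, 2 of 10 were higher in replicate 2 and 0 lower, where 12.6% and 14.3% of all genes compared were. The median log2 ratio was 0.21 for that list, -0.45 for the 3 SK channel genes and -0.01 over all genes compared. All 9 calcium source genes were detected and 0 passed 1.5-fold in either direction, beside the same shares of all genes. The highest were Cacna1e, the R-type calcium channel gene (32.4 ± 0.835 CPM per kilobase), the IP3 receptor gene Itpr1 (19.8 ± 0.554), the ryanodine receptor gene Ryr2 (16.02 ± 3.44) and the N-type channel gene Cacna1b (10.9 ± 0.307).

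On the Kv7 side, 11 of 12 genes of anchoring and the muscarinic pathway were detected, the exception being Chrm5 with 38 and 2 counts. The highest were Gnaq (103 ± 4.90 CPM per kilobase), the G protein that links muscarinic receptors to phospholipase C, the ubiquitin ligase gene Nedd4l (65.3 ± 12.9), the anchoring protein gene Akap5 (40.8 ± 5.26) and the phospholipase gene Plcb1 (32.0 ± 2.04). Their list had a median log2 ratio of -0.17. Of its 11 genes compared, 1 was past 1.5-fold higher and 1 lower, where 12.6% and 14.3% of all genes compared were. All 5 genes of PIP2 turnover were detected, with Synj1, a PIP2 phosphatase, at 81.6 ± 8.08 CPM per kilobase and the kinase genes Pip5k1b (33.9 ± 12.5), Pi4ka (24.4 ± 2.64) and Pip5k1a (23.1 ± 5.001) next. Past 1.5-fold, 0 of 5 were higher in replicate 2 and 1 was lower, beside those same shares of all genes. Both Slack partners were detected. Phactr1 was at 22.6 ± 3.19 CPM per kilobase, with a log2 ratio of -0.20. Fmr1, whose product binds Slack, was at 10.8 ± 3.04 CPM per kilobase, with 2442 and 3812 counts and a log2 ratio of 0.67, past 1.5-fold.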

How the data were processed

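The authors deposited raw counts per gene symbol, 1 file per library. The tools STAR 2.0.0e and HTSeq and the build mm10 are named per the submitters' processing notes. The annotation and whether counting used strand were not given in the sources used here. Lines for read classes and for unknown genes were left out, which kept 65.0% and 64.9% of counts on gene lines. CPM was computed here on those totals. Intervals are exact (Clopper-Pearson) binomial intervals on counts, so they cover counting error and not the spread between libraries. Reads carry no molecular identifiers, so the counts are of reads and not of molecules, and the intervals may be too narrow. Gene lengths came from GENCODE M21 (GRCm38), in which all 98 Kcn symbols matched. Log2 ratios used TMM totals from edgeR 4.0.16 and a prior count of 2. DESeq2 1.42.0 gave other size factors. With 1 group no test was run and no p-value is given. Of 200 genes changed 3-fold in data drawn from both libraries' means, 100.0% were recovered past 1.5-fold. The drawn data held counting noise only, without the wider spread seen between the real libraries. The changed genes were taken above a minimum level that Kcnmb4, Kcnn1 and Kcnt1 did not reach. The recovery therefore checks the calculation and not how well real differences are found. Across genes the libraries correlated at r = 0.984 and their counts differed by 67.8 times the degrees of freedom in a chi-square, so they are not 1 library deposited under 2 names.

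Members and lists were chosen with earlier results of these data known. Some relatives, partners and sequences are not reported here. Named genes are the members, their relatives, the 4 highest per kilobase of each partner list with any below 1 CPM, the nearest Kcn gene, and the highest and zero-count markers where a list's are given. Python 3.11.15, pandas 2.3.3, scipy 1.17.1 and R 4.3.3 were used.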

Additional observations from a re-analysis of the deposited data

Results flagged for a closer look

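The only signal outside the comparisons was that of the lines that name no gene. Reads on no annotated feature made up 16.7% and 17.0% of all lines in replicates 1 and 2, ambiguous reads 2.61% and 2.56%, and reads with several alignments 15.7% and 15.5%. Reads where a channel gene and an antisense gene overlap can fall in the ambiguous class. With 2 libraries no sample could be checked as an outlier.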

How the results depend on the processing

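Of the 124 values under another setting, 99 moved by no more than the spread allowed for them, 25 moved further and 0 reversed. No paired analysis was possible because the study has 1 group. The gene length moved most shares. Over the longest transcript, the coding length and with no length correction, Kcnn1 took 9.41%, 8.53% and 6.63% of SK, Kcnn2 46.7%, 26.7% and 29.9%, and Kcnn3 43.9%, 64.8% and 63.5%. In the same order Kcnq3 took 67.0%, 79.0% and 77.5% and Kcnq5 33.0%, 21.0% and 22.5% of the pair. With no length correction Kcnt1 took 5.36% and Kcnt2 94.6% of their pair. The ratio of Kcnma1 to Kcnmb4 was 2.28 over the longest transcript and 17.0 with no length correction. These shifts follow from the lengths themselves. The CPM totals include the gene lines Rn45s and Lars2, and Rn45s alone was at 63099 CPM in replicate 1. Without those lines in the totals, the mean level rose from 8.04 to 8.55 CPM for Kcnmb4 and from 65.3 to 69.4 CPM for Kcnt2. Both moved past their spread, and the other members stayed within theirs. At 2-fold, 0 members were higher in replicate 2. With library totals alone 1 member, Kcnq5, passed 1.5-fold lower, and the median log2 ratio of members was -0.32. Leaving out either library kept every share within its spread, by construction with 2 libraries, and the median level of members was 13.7 to 20.8 CPM. Depth limits Kcnn1 and Kcnt1, with 71 to 145 counts per library.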
